A study of Mus musculus with 2 samples.

Results

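The mouse odorant receptor genes numbered Olfr830 to Olfr986 were followed through single cells of the olfactory epithelium. They were taken as every gene symbol that starts with Olfr and carries a number in that range, without Olfr912, which gave 108 receptors of 1134 receptor symbols in the count matrix. A cell was assigned a receptor when that receptor had at least 3 UMIs (unique molecular identifiers, each standing for 1 captured transcript) and at least 2 in 3 of the receptor UMIs in the cell. Of 1888 cells assigned any receptor, 83 carried 1 of these 108. The rule itself reads gene symbols and no measured value.

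The tissue was the olfactory epithelium of 1 male C57BL/6 mouse, with 1 naris occluded on postnatal day 14 and collection on postnatal day 28. There was 1 library for the occluded side and 1 for the open one, and the droplet libraries were made from frozen dissociated cells after removal of dead cells. The deposited matrix holds both libraries under barcode endings 1 and 2, no source used here ties an ending to a side, and the libraries are called library 1 and library 2. With 1 library per side there is no replicate and no test. Ranges in brackets are exact 95% intervals (binomial where a share is given, Poisson where a level is) that cover counting error only. The filter kept 3032 and 5266 cells, whose median UMI counts were 5528 and 5140, and cells of the 108 receptors had medians of 4866 and 4569 UMIs. The libraries shared 12 barcode sequences.

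Odorant receptors are G protein-coupled receptors in the cilia of olfactory sensory neurons (OSNs). Each OSN stably expresses a single receptor gene, and the choice is kept by a feedback signal that runs through the unfolded protein response. Receptor genes lie in clusters along the chromosomes, and most are expressed in a restricted dorsal or ventral zone of the epithelium. Maturing neurons replace Gap43, a growth cone protein, with Omp, the olfactory marker protein, and mature OSNs set the levels of genes such as S100a5 by their activity.

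All 108 receptors lay on chromosome 9 of the GRCm38 (mm10) assembly, where the GENCODE M21 annotation calls each of them protein coding, although 3 symbols carry a pseudogene suffix. They formed 2 blocks. The proximal block held 30 receptors, Olfr830 to Olfr873, between positions 18874693 and 20303599. The distal block held 78 receptors, Olfr874 to Olfr986, between positions 37745106 and 40190134, after a gap of 17.44 Mb. Another 18 receptor genes with numbers outside the range lay within the blocks and were not among the 108.

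The coding sequences show how close the receptors of a block are. The 45 coding bases below are the stretch most alike over all 108 receptors, read 5′ to 3′ from GENCODE M21 transcripts; it holds the motif at the end of the third transmembrane segment that is typical of odorant receptors. The 12 receptors with most cells are shown, in order of their cells, and capitals mark bases that differ from the most common base of the 108. The stretch of Olfr855 lies at chr9:19584890-19584934 on the plus strand of GRCm38, that of Olfr859 at chr9:19808671-19808715 on the plus strand and that of Olfr884 at chr9:38047572-38047616 on the plus strand, each inside the coding part of an exon.
Olfr855: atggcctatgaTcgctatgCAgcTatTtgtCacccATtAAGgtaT
Olfr859: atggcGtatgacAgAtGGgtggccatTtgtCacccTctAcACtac
Olfr843: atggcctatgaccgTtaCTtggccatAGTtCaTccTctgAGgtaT
Olfr872: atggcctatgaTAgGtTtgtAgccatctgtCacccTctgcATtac
Olfr884: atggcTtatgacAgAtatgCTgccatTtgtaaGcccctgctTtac
Olfr944: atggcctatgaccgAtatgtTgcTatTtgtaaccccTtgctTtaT
Olfr986: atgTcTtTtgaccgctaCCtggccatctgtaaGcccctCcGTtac
Olfr835: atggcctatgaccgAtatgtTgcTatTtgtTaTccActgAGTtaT
Olfr839-ps1: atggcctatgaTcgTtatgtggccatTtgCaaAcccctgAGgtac
Olfr845: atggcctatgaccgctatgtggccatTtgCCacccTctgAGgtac
Olfr851: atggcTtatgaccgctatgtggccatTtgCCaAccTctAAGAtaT
Olfr857: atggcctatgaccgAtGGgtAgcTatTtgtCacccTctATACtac

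In this stretch the proximal receptors differed from the most common base at a median of 9.5 positions and the distal ones at a median of 7. The range was 4 to 13 over all 108. The 78 distal receptors weigh most in the most common base, so these medians do not show that proximal receptors are more varied. Over whole coding sequences, the median identity was 67.5% for the 3438 pairs within a block and 63.7% for the 2340 pairs between blocks. Within the blocks it was 68.1% for proximal and 67.4% for distal pairs. Among the 108 alone, the receptor with the closest coding sequence lay in the same block for each of them. Receptors outside the 108 were left out of this search and can be closer. Olfr873 stood at 75.9% to Olfr872, its closest among the 108, and at 76.7% to Olfr18, which is outside them. For 14 receptors it was at 95% identity or more, and reads from such pairs may not be told apart by the counting. The pair closest in sequence was Olfr952 and Olfr955, at 98.1% over 942 aligned bases, and the pair Olfr874 and Olfr875 stood at 95.6% over 930. Their last 60 coding bases are shown to give the scale of the difference, and capitals mark bases that differ within a pair. They lie at chr9:39426128-39426187 (minus strand), chr9:39469783-39469842 (minus strand), chr9:37747006-37747065 (plus strand) and chr9:37773531-37773590 (plus strand) of GRCm38. This kind of library reads the 3′ end of a transcript, which can lie past the coding bases, as the Olfr874 gene runs on to position 37748594. The 3′ ends of these pairs were not compared.
Olfr952: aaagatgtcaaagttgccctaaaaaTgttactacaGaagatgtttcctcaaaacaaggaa
Olfr955: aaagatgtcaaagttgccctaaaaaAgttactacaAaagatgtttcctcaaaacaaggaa
Olfr874: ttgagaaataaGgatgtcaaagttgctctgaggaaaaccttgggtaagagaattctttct
Olfr875: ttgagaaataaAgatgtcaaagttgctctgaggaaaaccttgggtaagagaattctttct

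Olfr952 had no UMI in kept cells and Olfr955 had 2, and neither had an assigned cell. Olfr874 had 70 UMIs and 2 cells, and Olfr875 had 6 UMIs and 1 cell. Of the 14 receptors with a neighbour in sequence at 95% or more, 5 had a cell (35.7%, 12.8 to 64.9). Of the 64 receptors whose closest relative was below 90%, 31 had a cell (48.4%, 35.8 to 61.3), so the intervals of the groups overlapped widely.

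Usage was the first question. The 108 receptors were carried by 30 of 736 assigned cells in library 1 (4.08%, 2.77 to 5.77) and by 53 of 1152 in library 2 (4.60%, 3.47 to 5.98). The shares differed by less than their intervals. Per receptor symbol this was 0.769 cells, beside 1.76 cells for the other 1026 receptor symbols. The runs of numbers on either side, Olfr763 to Olfr829 and Olfr987 to Olfr1199, had 2.00 and 1.14 cells per symbol, and the run with most cells among those compared, Olfr1200 to Olfr1318, had 2.99. An assigned cell was found for 49 of the 108 receptors (45.4%, 35.8 to 55.2), beside 610 of the 1026 others (59.5%, 56.4 to 62.5). This low share was not particular to the 108. It was 45.7% (69 of 151) for Olfr987 to Olfr1199 and 50.8% (61 of 120) for Olfr543 to Olfr692, with intervals that overlapped that of the 108. Olfr763 to Olfr829, Olfr1200 to Olfr1318 and Olfr1410 to Olfr1505 stood higher, at 63.3%, 76.2% and 59.4%.

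The cells were spread thinly. A single cell was found for 25 receptors, 2 cells for 17, 3 cells for 5, 4 cells for Olfr859 and 5 cells for Olfr855. Both libraries held cells of 13 receptors, library 1 alone of 12 and library 2 alone of 24. At these counts a receptor seen in 1 library cannot be called absent from the other. Of the 59 receptors without a cell, 25 had no UMI in kept cells and 34 had UMIs but no cell that met the rule, with at most 29 UMIs for 1 receptor. Some of them span little more than a coding sequence in GENCODE M21, such as Olfr834 (18987990 to 18988928) and Olfr885 (38061322 to 38062251). Where the counting used so short an annotation, reads from a 3′ end past it would be missed. How far this lowered the counts was not tested. The proximal block gave 33 cells from 15 of its 30 receptors, or 1.10 cells per receptor, and the distal block gave 50 cells from 34 of 78, or 0.641 per receptor. By library the proximal block had 15 and 18 cells and the distal block 15 and 35.

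**Figure D1:**
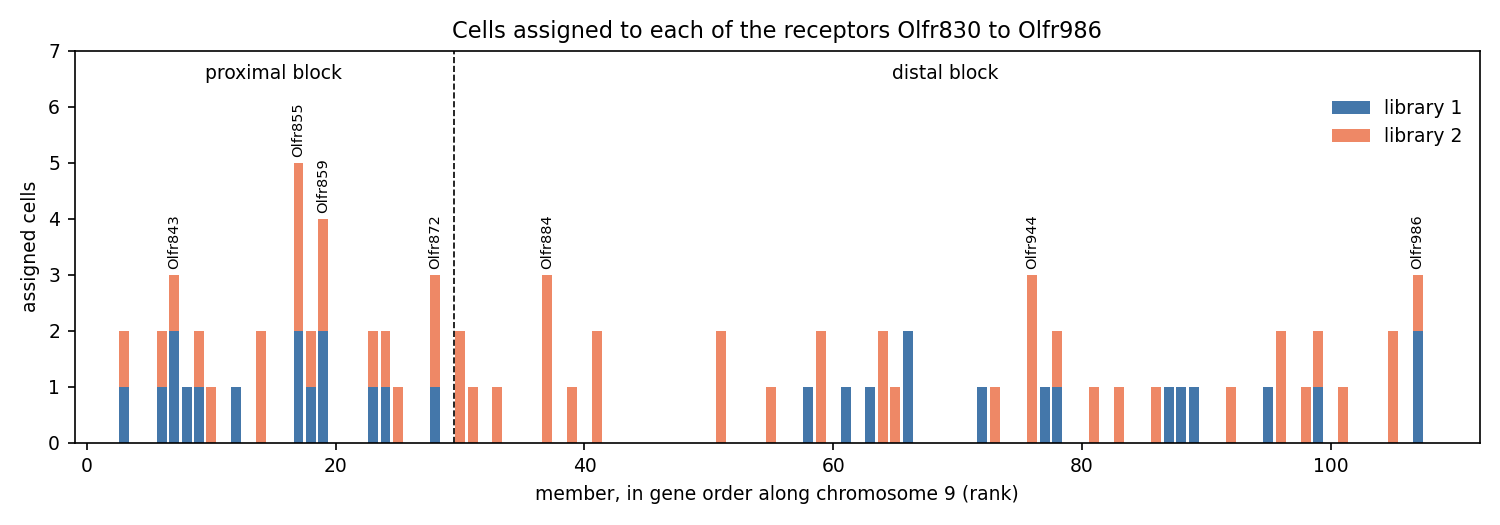
Assigned cells (vertical axis) for each of the 108 receptors in gene order along chromosome 9 (horizontal axis, rank), stacked by library; the dashed line separates the blocks. Olfr855 with 5 cells and Olfr859 with 4 stand highest, and 59 receptors have no bar.

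Among the proximal receptors, Olfr855 (gene at 19582617 to 19586030, plus strand) had 2 cells in library 1, with 123 and 79 receptor UMIs, and 3 in library 2, with 101, 56 and 34. Of these 5 cells, 4 were Omp-high and 1 was intermediate (stages are defined in the account of stage below), and their zone marker UMIs were 3 of Ncam2 and none of Nqo1. Olfr859 (19804906 to 19817626, plus strand) had cells with 63 and 30 receptor UMIs in library 1 and with 54 and 39 in library 2. Its 4 cells held 4 UMIs of Nqo1 and none of Ncam2, with 3 cells Omp-high and 1 Gap43-high. Both receptors were thus found in both libraries, and the few zone UMIs of their cells came from opposite markers.

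Olfr843 had cells with 61 and 60 receptor UMIs in library 1 and 1 with 41 in library 2. Olfr851 had 2 cells, both in library 2, with 197 and 184 UMIs, the highest receptor counts of the 83 cells. Olfr835, Olfr839-ps1, Olfr845 and Olfr857 each had 1 cell per library, with 28 and 15, 8 and 27, 39 and 55, and 28 and 40 receptor UMIs. All 8 of these last cells were Omp-high. Olfr839-ps1 is named as a pseudogene, yet its transcripts were the only receptor transcripts in its 2 cells.

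Among the distal receptors, Olfr884 and Olfr944 each had 3 cells, all in library 2. The Olfr884 cells held 37, 21 and 12 receptor UMIs, all were Omp-high, and they carried 12 UMIs of Nqo1 and none of Ncam2. The Olfr944 cells held 36, 23 and 8, 2 of them were Gap43-high and 1 was not staged, and they carried 3 UMIs of Ncam2 and none of Nqo1. Olfr986, at the far end of the block, had cells with 37 and 34 UMIs in library 1 and 1 with 32 in library 2, all Omp-high.

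Stage was read from the share of Omp among the Omp and Gap43 UMIs of a cell, with at least 2 in 3 called Omp-high, at most 1 in 3 Gap43-high and cells with fewer than 5 such UMIs not staged; this is a range on a score, not a cell type. Most cells of the 108 receptors were Omp-high, 27 of 29 staged cells in library 1 (93.1%, 77.2 to 99.2) and 34 of 45 in library 2 (75.6%, 60.5 to 87.1). Cells of other receptors were Omp-high in 80.9% (77.6 to 83.8) and 66.3% (63.4 to 69.2). The share was thus higher in library 1 for both sets of cells, and the intervals of the 108 receptors and of the others overlapped in each library. With each cell thinned to 2000 UMIs, the shares were 95.5% and 78.9% for the 108 receptors and 90% and 81% for the others, so the direction between the 2 sets differed in library 2. Over both libraries 8 cells were Gap43-high, 5 intermediate and 9 not staged, and 7 of the 74 staged cells lay within 10 points of a limit.

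The assigned receptor was read many times in a mature cell. In Omp-high cells it had a median of 40 UMIs, with a range of 4 to 197 and a median level of 8911 CPM (its share of the cell's UMIs, scaled to 1000000). In Gap43-high cells the median was 20 UMIs and 4259 CPM. Omp-high cells of other receptors had a median of 43 UMIs and 7845 CPM. The 108 receptors were therefore assigned to few cells, but in those cells their transcript counts were near those of other receptors.

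Zone was read from Nqo1, a quinone reductase of dorsal OSNs, and Ncam2, the adhesion molecule OCAM of ventral OSNs. A cell with at least 2 UMIs of both together was called Nqo1-marked or Ncam2-marked when that marker held at least 2 in 3 of them. Of 30 called cells, 23 were Nqo1-marked (76.7%, 57.7 to 90.1), 6 Ncam2-marked and 1 mixed, while 53 of the 83 cells could not be called at this depth. Among cells of other receptors, 174 of 443 called cells were Nqo1-marked (39.3%, 34.7 to 44.0), and 27.4% (22.9 to 32.3) were so without Olfr543 to Olfr692, a run in which 74 of 78 called cells were Nqo1-marked. These shares depended on the call rule. After thinning to 2000 UMIs, 15 of 17 called cells of the 108 receptors and 97 of 140 of the others (69.3%, 60.9 to 76.8) were Nqo1-marked, and the intervals overlapped.

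The zone marker levels of the blocks differed, while the calls were few. In the distal block 19 of 21 called cells were Nqo1-marked (90.5%, 69.6 to 98.8), and in the proximal block 4 of 9 were (44.4%, 13.7 to 78.8), with 4 Ncam2-marked and 1 mixed, so the intervals overlap. By library the shares were 5 of 6 distal and 3 of 4 proximal cells in library 1, and 14 of 15 and 1 of 5 in library 2, so most of the difference in calls came from library 2. Summed over cells, Nqo1 stood at 453 CPM (371 to 547) in distal cells, at 94.3 (55.0 to 151) in proximal cells and at 87.6 (82.5 to 93.1) in cells of other receptors. By library, Nqo1 was at 488 and 437 CPM in distal cells and at 92.1 and 95.9 in proximal cells, the same order in both libraries. Acsm4, an acyl-CoA synthetase gene of dorsal OSNs, showed the same order, with 161 CPM (114 to 221) in distal and 27.7 (9.01 to 64.8) in proximal cells. Ncam2 was at 42.3 CPM (20.3 to 77.8) in distal and 99.9 (59.2 to 158) in proximal cells, with overlapping intervals. B lineage marker cells, which should lack these genes, had 0 and 1.53 CPM of Nqo1 in the libraries.

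Robo2, an axon guidance receptor with a dorsal to ventral gradient, did not follow this order, with 161 CPM (108 to 231) in proximal and 88.8 (55.0 to 136) in distal cells, with overlapping intervals. The nuclear factor I genes, transcription factors that are higher in ventral OSNs, were low in the cells of both blocks when summed over libraries. Nfia was at 31.2 CPM (16.6 to 53.4) over the cells of all 108 receptors and at 116 (110 to 122) in cells of other receptors. Nfix was at 96.0 (68.6 to 131) and 215 (206 to 223), and Nfib at 144 (110 to 185) and 249 (240 to 258). In proximal cells of library 2, however, Nfib was at 211 CPM (132 to 320) and Nfix at 153.5 (87.8 to 249). Of the 22 Nfib UMIs there, 4 and 3 came from Olfr872 cells with 313 and 257 UMIs of sustentacular (supporting cell) markers. Cells of other receptors in that library were at 258 and 211, within those intervals. Nfib in cells of the 108 receptors also differed by library, at 67.7 and 186 CPM. Of its 50 UMIs in library 2, 12 came from an Olfr875 cell with 107 UMIs of sustentacular markers. Another 10 came from an Olfr889 cell with 72 UMIs of neuronal precursor markers. In Omp-high cells without markers of a type outside the neuronal lineage, Nfib was at 58.0 and 110.5 CPM, beside 155 and 163 for other receptors. Nfia was low in proximal cells too, at 16.7 CPM from 3 UMIs, although those cells were not Nqo1-rich. Nrp2, a semaphorin receptor of ventral axons, was at 94.3 CPM in proximal and 33.8 in distal cells, with intervals of 55.0 to 151 and 14.6 to 66.7 that overlap.

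**Figure D2:**
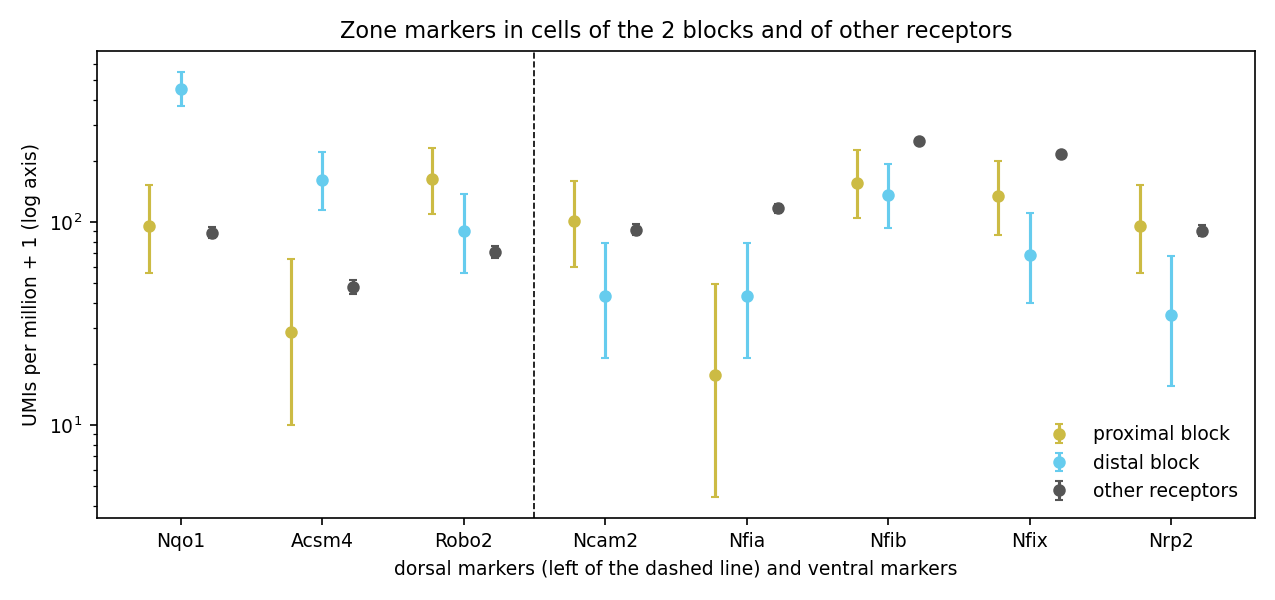
Levels of 3 dorsal and 5 ventral zone markers (CPM plus 1, log axis) in proximal cells, distal cells and cells of other receptors; points are summed over both libraries and bars are exact 95% Poisson intervals. Nqo1 and Acsm4 stand higher in distal than in proximal cells, while Nfia lies below the level of other receptors in both.

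Receptor by receptor, few UMIs of either marker were available. Of the 49 receptors with a cell, 20 had UMIs of Nqo1 only, 15 of Ncam2 only, 1 of both and 13 of neither. Of 610 other receptors with a cell, 131 had Nqo1 only, 286 Ncam2 only, 44 both and 149 neither, and with 1 or 2 cells per receptor most could show only 1 marker. In the distal block, Nqo1 alone was found for 17 of 34 receptors and Ncam2 alone for 7 (Olfr911-ps1, Olfr914, Olfr921, Olfr944, Olfr972, Olfr974 and Olfr986). In the proximal block, Nqo1 alone was found for Olfr835, Olfr859 and Olfr867 and Ncam2 alone for 8. Olfr872 was the receptor with both, and its cell with both markers, in library 2, held 14327 UMIs and 313 UMIs of sustentacular (supporting cell) markers. At least 2 called cells were available for 5 receptors, Olfr859, Olfr874, Olfr904, Olfr916 and Olfr978, and for none of them did the calls disagree.

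**Figure D3:**
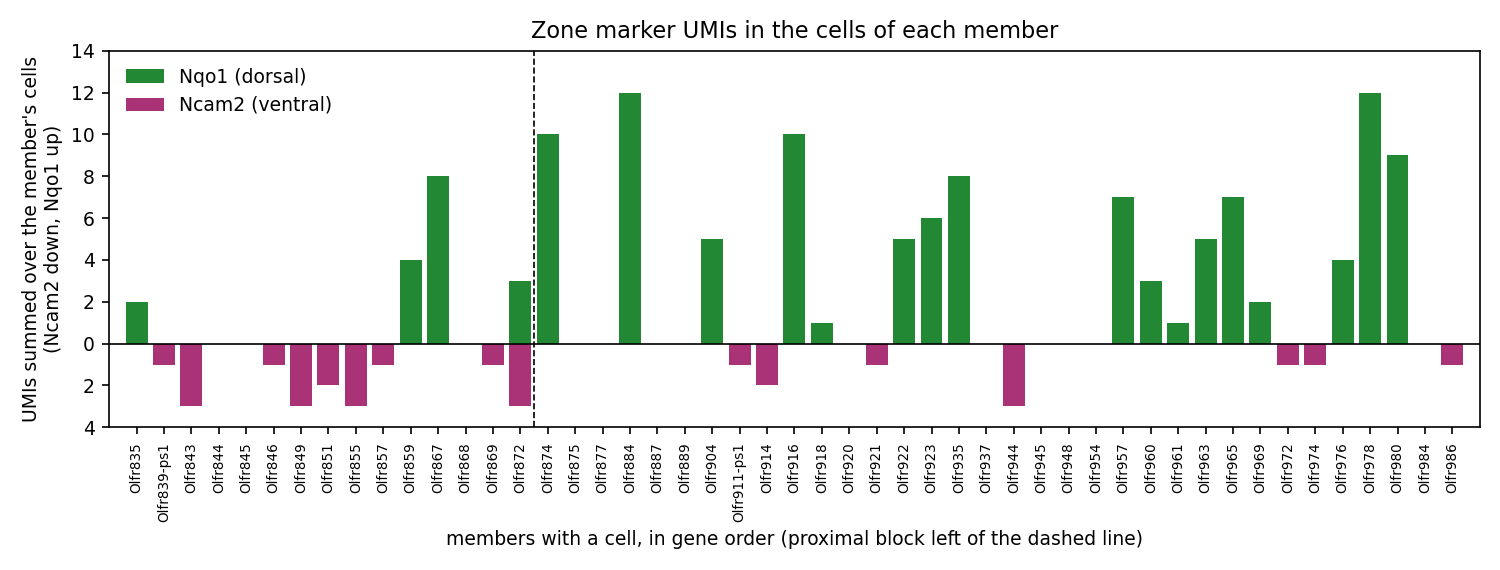
UMIs of Nqo1 (upward) and Ncam2 (downward), summed over the cells of each of the 49 receptors with a cell, in gene order; the dashed line separates the proximal from the distal block. Most distal receptors with marker UMIs show Nqo1, and 8 of 15 proximal receptors show only Ncam2.

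Genes set by neuronal activity were compared between libraries in Omp-high cells, 27 in library 1 and 34 in library 2 for the 108 receptors and 532 and 676 for other receptors. S100a5, a calcium-binding protein gene that is raised by odour-driven activity, was at 625 CPM in library 1 and 9486 CPM in library 2. The log2 ratio after adding 1 CPM was 3.92, with a counting interval of 3.61 to 4.26. In cells of other receptors S100a5 was at 1571 and 11559 CPM. Cells varied far more than counting error. In library 1 the lowest, median and highest cell had 0, 0 and 6897 CPM, with 18 of 27 cells at 0, and in library 2 they had 0, 3258 and 66682 CPM, with 4 of 34 cells at 0, so the libraries overlap.

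Most receptors seen in both libraries showed the same direction for S100a5. Of 10 receptors with an Omp-high cell in each library, S100a5 was higher in library 2 for 9, while Pcp4l1 was so for 6. Olfr835 had 4 S100a5 UMIs in its library 1 cell and 281 in its library 2 cell. Olfr855 had none in 2 cells and 73 in 2 cells, and Olfr986 none in 2 cells and 37 in 1. Olfr857 had none in either. These are 1 or 2 cells per receptor and library, and no error can be given. All come from the same 2 libraries, so the receptors are not replicates of the difference. Both blocks showed the difference, with 799 and 10216 CPM in proximal and 446 and 8852 CPM in distal cells.

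Calb2, the calcium-binding protein calretinin, which is lowered by activity in OSNs, ran the other way, with 1771 CPM in library 1 and 1014 in library 2, a log2 ratio of -0.80 (-1.10 to -0.51). Cells of other receptors had 1332 and 550 CPM. Of the 10 receptors with cells in both libraries, which are not replicates, none had more Calb2 in library 2, 7 had less, and 3 had none in either. Single cells ranged from 0 to 5513 CPM in library 1 and from 0 to 5937 in library 2, with medians of 1739 and 768, so the groups overlap.

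The lists of activity genes, which were chosen with earlier results of these data known, were read against all genes. In Omp-high cells of the 108 receptors, 17.5% of 9527 genes at 10 CPM or more were at least 2-fold higher in library 2 and 16.8% at least 2-fold lower, since few cells stand behind each level, beside 1.35% and 0.387% in cells of other receptors. Of 8 measured genes of the activity-raised list, 7 were higher in library 2 and 4 of them at least 2-fold, with a median log2 ratio of 1.12 beside 0.02 over all genes. Besides S100a5 these were Pcp4l1 (44.1 and 904 CPM), Kirrel2, an adhesion molecule of axons (14.7 and 238 CPM), and Etv5, a transcription factor (14.7 and 48.9 CPM). Pcp4l1 had 6 and 148 UMIs, and single cells of Olfr835, Olfr911-ps1 and Olfr851 held 40, 34 and 18 of the 148. In library 2, 21 of 34 cells had no Pcp4l1 UMI. Kirrel2 had 2 and 39 UMIs, a log2 ratio of 3.93 with a counting interval of 2.07 to 7.12. Etv5 had 2 and 8 UMIs, and its interval, -0.59 to 5.01, includes 0. The exception was Cidea, a lipid droplet protein gene, at 36.7 and 12.2 CPM from 5 and 2 UMIs, with an interval of -4.98 to 1.02. Cidea was lower than in cells of other receptors, which had 148 and 124 CPM.

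Of 8 genes of the activity-lowered list, 7 were lower in library 2 and 4 at least 2-fold, with a median of -0.91. The 4 were Efna5, an ephrin ligand of axons (323 and 159 CPM), Entpd2, an ectonucleotidase (95.5 and 30.5 CPM), Rims3, a presynaptic protein (191 and 55.0 CPM), and Scgn, the calcium-binding protein secretagogin (66.1 and 18.3 CPM). Scgn had 9 and 3 UMIs, and the interval of its log2 ratio, -4.37 to 0.15, includes 0. Kirrel3, an adhesion molecule of opposite activity dependence to Kirrel2, was at 66.1 and 61.1 CPM, beside 121 and 51.3 CPM in cells of other receptors. In those cells the medians were 1.67 for the raised and -1.14 for the lowered list. The difference between the 2 sets of cells was not tested. The other lists stood closer to 0: the median was -0.19 for 15 olfactory transduction genes (5 higher, 10 lower), 0.16 for 11 genes of receptor feedback (7 higher, 4 lower) and 0.11 for 9 immediate early genes (5 higher, 4 lower).

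**Figure D4:**
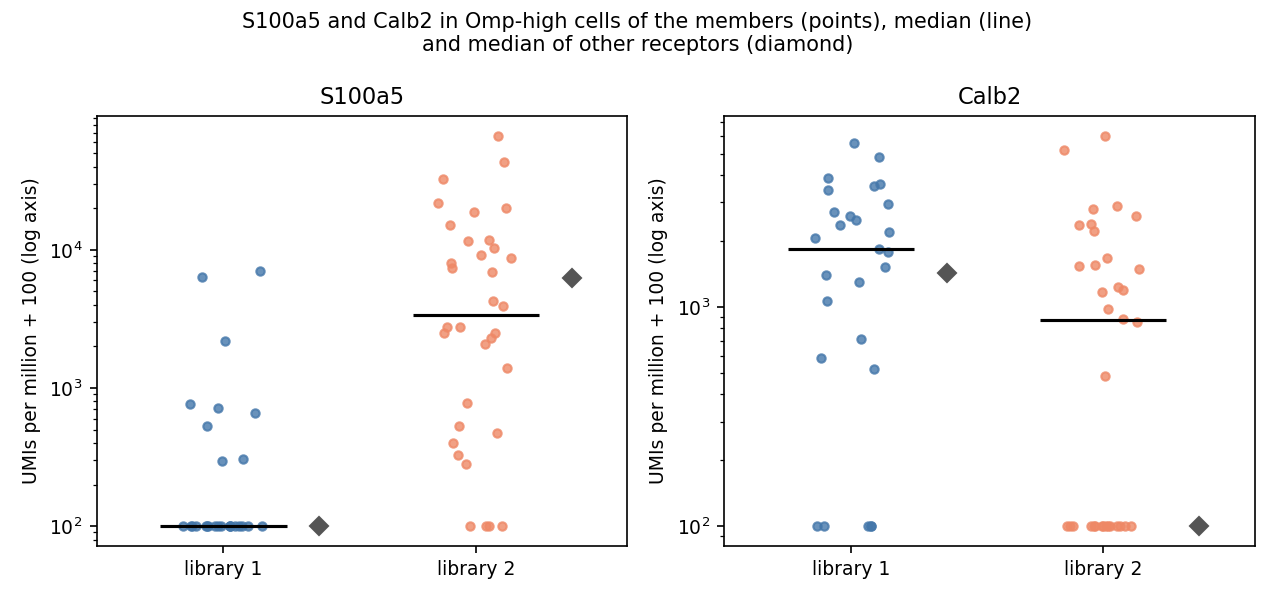
S100a5 (left) and Calb2 (right) in each Omp-high cell of the 108 receptors (CPM plus 100, log axis) by library; lines are medians and diamonds are medians of cells with other receptors. For S100a5, 18 of 27 library 1 cells lie at the bottom and 30 of 34 library 2 cells lie above it.

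Within each library, Omp-high cells of the 108 receptors were then set beside those of other receptors. By a rule of size in both libraries (at least 50 CPM and 2-fold), 10 genes were higher (0.274% of 3656) and 14 lower (0.383%). The dorsal genes Nqo1 and Acsm4 were among the 10. F8, the coagulation factor VIII gene, was at 184 and 153 CPM beside 61.2 and 36.8 CPM, with UMIs in 27 of 61 cells. Cartpt, a neuropeptide precursor gene, was at 3777 and 1765 CPM beside 805 and 748 CPM, with UMIs in 59 of 61 cells. Among other receptors Cartpt was at 2210 CPM in Nqo1-marked and 392 CPM in Ncam2-marked cells, so it follows the dorsal marker there. In cells of the 108 receptors it was high in both blocks, at 3097 CPM in proximal and 2286 CPM in distal cells. The rest were Ccdc28a, Eml6 (a microtubule protein gene), Kcnmb4 (a subunit of the BK potassium channel), Ttc7, Cmc4 and 2810001G20Rik.

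Of the 10 largest differences in the lower direction, several belonged to other cell types: Ngp and S100a8 are neutrophil genes. At least 5 UMIs of a marker list outside the neuronal lineage were found in 12% (5.93 to 21) of cells of the 108 receptors and in 17.1% (15.4 to 18.9) of cells of other receptors. Without such cells, 9 of the 10 higher genes but 4 of the 10 lower ones kept a 2-fold difference in both libraries. The 4 were Rprm, Tshz1, Akt2 and Nfix. Rprm, a cell cycle inhibitor gene, had no UMI in the 61 cells, where 3 UMIs would be 22 and 18.3 CPM in the libraries, beside 52.6 and 112 CPM in other cells. In other cells it was at 122 CPM in Ncam2-marked and 8.49 CPM in Nqo1-marked cells, and in proximal and distal cells of the 108 receptors it was at 0. Tshz1, a zinc finger transcription factor, was at 36.7 and 48.9 CPM beside 209 and 186 CPM.

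Without these cells Tshz1 was at 33.2 and 27.6 CPM beside 210 and 207 CPM. Akt2, a kinase of insulin signalling, was at 22 and 18.3 CPM beside 65.2 and 52.5 CPM, from 3 UMIs in each library. The dorsal list was higher in both libraries for 3 of 3 genes and the ventral list lower for 5 of 5, with and without the cells holding other-type markers. Over all genes at 10 CPM or more, 27.6% were higher and 28.7% lower in both libraries, and 0.946% and 4.14% were so at least 2-fold.

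The other lists moved less or depended on those cells. All 8 immediate early genes measured in both libraries, the first genes to respond to a stimulus, were lower in cells of the 108 receptors in both libraries, for example Fos at 889 and 629 CPM beside 1335 and 1054 CPM. Without cells holding other-type markers, 3 of 8 were lower and 1 higher in both, beside 27.8% lower and 24.2% higher of all genes, and Fos stood at 729 and 345 CPM beside 705 and 507 CPM. The olfactory transduction list of 15 genes, from the receptor to the ion channels, had 7 genes higher and 4 lower in both libraries, none of them 2-fold, but 3 higher and 8 lower without those cells. Of the 11 genes of receptor feedback, 6 were higher and 2 lower, and 4 and 3 without them. Of 8 activity-raised genes 1 was higher and 3 lower (1 and 5 without them), and of 8 activity-lowered genes 5 were higher and 1 lower (5 and 2). Ddit3, a transcription factor of the unfolded protein response, was at 265 and 275 CPM beside 136 and 118 CPM. Trib3, a pseudokinase gene of the same response, was at 95.5 and 110 CPM beside 42.9 and 41.0 CPM. Without the cells holding other-type markers they stood at 282 and 304 CPM beside 159 and 139 CPM (Ddit3) and at 108 and 124 CPM beside 56.1 and 46.0 CPM (Trib3).

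Receptor transcripts other than the assigned one were rare. They were found in 18 of the 83 cells and made up 30 of 3713 receptor UMIs, and 492 of 1805 cells of other receptors held some. Of the 30 UMIs, 11 came from the receptor gene next to the assigned one. Olfr872 gave 10 of the 11: all 3 of its cells carried Olfr39, with 15 and 4, 15 and 4, and 7 and 2 UMIs of Olfr872 and Olfr39. Olfr39 had 11 UMIs in all kept cells, and 10 of them were in these 3 cells. The genes lie on the same strand, 20.7 kb apart, at 66.9% identity in coding sequence. The 3′ ends of the transcripts shared none of 251 words of 50 bases. Olfr872 overlaps the small RNA gene Gm25425 on the other strand.

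A second adjacent pair joined Olfr873, the last receptor of the proximal block, to Olfr18, which is not among the 108. Olfr873 had 29 UMIs and no assigned cell. Both cells assigned to Olfr18 carried it, with 57 and 5 and with 94 and 4 UMIs of Olfr18 and Olfr873. These genes lie on opposite strands, 8.55 kb apart. The other 20 UMIs of Olfr873 were spread over 14 cells, 5 in the sustentacular class, 5 in the immature OSN class, 1 in the mature OSN class and 3 in none.

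Some receptors had UMIs outside neurons. Cells were put in the class of the marker list with most UMIs, with at least 15; this class was defined after the data had been seen. Olfr920 had 1 assigned cell, an Omp-high cell of library 1 with 114 receptor UMIs. It also had UMIs in 75 of 3038 sustentacular marker cells (2.47%, 1.95 to 3.09), at 2.39% in library 1 and 2.52% in library 2. Marker cells of other non-neuronal types had shares with overlapping intervals, 4 of 104 horizontal basal cells (3.85%, 1.06 to 9.56) and 8 of 339 macrophages or monocytes (2.36%, 1.02 to 4.60). The share was 0.139% (0.0168 to 0.501) in 1439 mature OSN marker cells and 0 of 352 in B lineage marker cells, where the interval reaches 1.04%. The median depth was 6608 UMIs in sustentacular, 5144 in mature OSN and 1583 in B lineage marker cells. Other receptors also had UMIs there: 34.0% of the sustentacular marker cells held any receptor UMI, and Olfr920 ranked 24 of 1134 receptors by its UMIs in them, with 84 of the 341 UMIs of the 108 receptors. Vwa5a, the gene that ends 8.96 kb upstream of Olfr920 on the same strand, was at 30.6 and 34.1 CPM in sustentacular marker cells and at 2.80 and 2.05 CPM in mature OSN marker cells. It was also at 44.6 and 31.2 CPM in macrophage or monocyte marker cells and at 13.0 and 2.83 CPM in immature OSN marker cells. The part of Vwa5a in the Olfr920 counts was not tested.

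Olfr889 had UMIs in 7 of 68 ensheathing glia marker cells (10.3%, 4.24 to 20.1), at 2 of 28 in library 1 and 5 of 40 in library 2, and in 0.208% (0.0430 to 0.608) of mature OSN marker cells. Its 2 assigned cells, both in library 2, held 3 receptor UMIs each and no Omp or Gap43. One carried 25 UMIs of B lineage markers and 1 of mature OSN markers, and the other 72 UMIs of markers of immediate neuronal precursors. These 2 were the cells of the 83 with fewer than 5 UMIs of OSN markers, and they go against the label of receptor-expressing neurons.

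**Figure D5:**
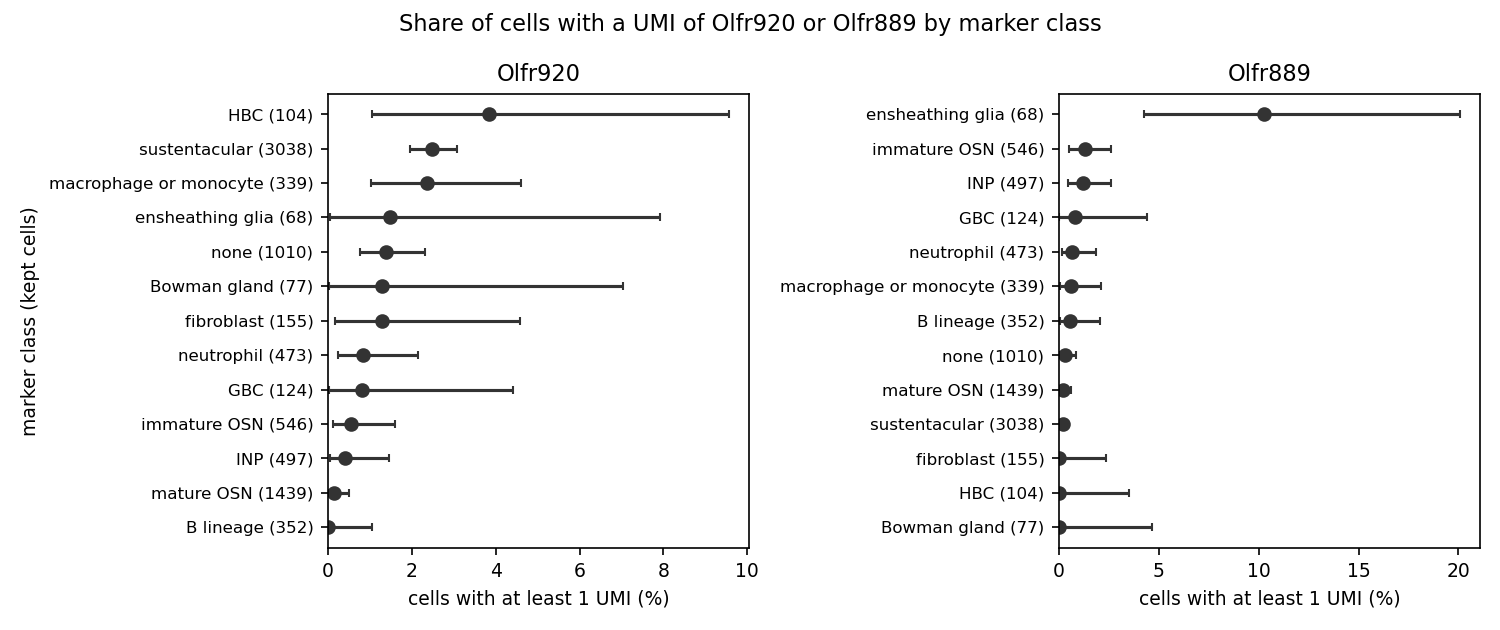
Share of kept cells with at least 1 UMI of Olfr920 (left) or Olfr889 (right) by marker class, for classes of at least 50 cells (number in brackets), with exact 95% binomial intervals. Olfr920 is detected in 2.47% of 3038 sustentacular marker cells and Olfr889 in 10.3% of 68 ensheathing glia marker cells.

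Markers of another cell type stood beside receptor and OSN transcripts in 10 of the 83 cells, 2 in library 1 and 8 in library 2. The 10 had a median of 7860 UMIs, beside 4601 in the rest. Sustentacular markers had at least 5 UMIs in 8 of them, and macrophage markers reached 165 UMIs in a cell of Olfr923 in library 1. Another 11 kept cells held at least 3 UMIs of 1 of the 108 receptors without being assigned to it. In 1 of these, of 23225 UMIs, Olfr99 had 97 UMIs and Olfr855 had 70, with 526 UMIs of sustentacular markers. Whether these barcodes hold more than 1 cell was not tested. Olfr916 overlaps Gm49385 on its own strand, so the count of Olfr916 is uncertain to that extent. Olfr860, Olfr870 and Olfr943 overlap annotated genes on the other strand only, and an effect of this on their counts was not tested.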

How the data were processed

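The Chromium 3′ v3 kit is named by the labels, and the submitters' processing notes list Cell Ranger 3.0.2 and the mm10 assembly. The authors deposited 1 matrix of counts (whole-number UMIs per gene and barcode, 31053 genes, 12491 barcodes). Whether depth was equalised between libraries is not stated in the labels or file headers. The 108 receptors and all gene lists were chosen with earlier results of these data known.

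The filter required 1000 UMIs, 500 genes and no more than 10% mitochondrial UMIs, and removed 1469 and 2724 barcodes. No doublet caller was run; cells with markers of another type were kept, and left out as an alternative. CPM come from UMIs summed over cells, and log2 ratios were taken after adding 1 CPM. List genes needed 10 CPM in the higher group. Receptors named with values were the 12 with most cells, ties by lower number; others are named where a result turns on them, after their values were seen. Other genes were named from the lists or by a rule, with the 10 largest in each direction. The rule asked for at least 50 CPM in the higher group of each library, 50 UMIs and a 2-fold difference in both libraries. It also allowed at most 50% of the UMIs in 3 cells, counted only in cells of the followed receptors. Genes lower in those cells, such as Ngp with 0 UMIs there, were therefore not screened for a few dominant cells of other receptors. The planned comparison of protein sequences was replaced by coding sequences of GENCODE M21, aligned in pairs with Biopython 1.88 and together with MAFFT 7.526. The naming rule was run on simulated data with counting error only and differences larger than 2-fold in highly expressed genes. Spread between cells and the limit on 3 cells were not part of that run, so it does not cover them. Calculations used scipy 1.17.1, pandas 2.3.3 and numpy 2.4.6 under Python 3.11.15, and plots matplotlib 3.10.9.

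Alternatives varied the cell filter, the receptor assignment, the stage and zone rules, the pseudocount, the depth (cells thinned to 2000 UMIs) and the set of cells or receptors.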

Additional observations from a re-analysis of the deposited data

How the results depend on the processing

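No paired analysis was possible because each side has 1 library. The share of assigned cells with 1 of the 108 receptors (4.14% to 5.17%), the number of receptors with a cell (44 to 56), the Omp-high share (75.7% to 86.5%) and the median of the activity-raised list (0.86 to 2.77) stayed within the counting interval (for the number, within 1.5 times; for the median, within the medians of the genes' interval bounds) under every alternative run for them, and no ratio changed sign. The bounds for that median were wide, -0.87 to 3.71, so staying within them says little. The Nqo1-marked share was 49.0% with Nqo1 plus Acsm4 against Ncam2, Nfib and Nfix and 93.8% with at least 4 UMIs. Cells of other receptors were at 13.2% and 74.7% under the same rules. The S100a5 log2 ratio was 3.42 with at most 5% mitochondrial UMIs, 3.6 with cells thinned to 2000 UMIs and 6.79 as a mean over receptors. That mean gave -3.92 for Calb2 and -1.81 for the activity-lowered list; receptors with no UMI in 1 library enter it with the added 1 CPM. Leaving out cells with other-type markers, a choice made after seeing the data, as was thinning for shares, took the genes that differed 2-fold from other receptors in both libraries from 457 to 281. Depth limits the zone calls, and few cells per receptor limit every other value.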
